A study of Mus musculus with 12 samples.

Results

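The genes described here are 48 collagen, matrix and mesenchymal genes of the mouse, matched by Ensembl gene identifier in RNA-seq count tables that list 41388 genes. They were listed by name, as genes that stromal cells carried along in a bone marrow culture would express. The list was drawn up with earlier results of the same libraries known, so counts over it describe these libraries and are not independent evidence of a direction. Bone marrow cells of C57BL/6 mice had been cultured for 5 days, detached, replated and kept for 2 more days in 2% M-CSF, alone or with RANKL at 50 ng/ml. M-CSF (macrophage colony-stimulating factor) keeps bone marrow macrophages alive, and RANKL turns them towards osteoclasts, the cells that resorb bone. The mice were labelled by a floxed allele of Asxl2, a chromatin regulator gene, or as Asxl2 with LysM Cre. LysM Cre is a recombinase under the control of the myeloid lysozyme gene Lyz2. The sample titles do not spell out a floxed allele in the LysM Cre mice, whose Asxl2 level was far lower, as given below.

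There were 4 groups of 3 libraries: flox_BMM (flox, M-CSF alone), KO_BMM (LysM Cre, M-CSF alone), flox_OC (flox, M-CSF and RANKL) and KO_OC (LysM Cre, M-CSF and RANKL). KO is used here for the Cre-positive genotype. No group carried Cre with an intact Asxl2, so Cre and the loss of Asxl2 cannot be told apart. Cre driven by Lyz2 acts in macrophages and other myeloid cells and not in fibroblasts, by what is known of that gene. Nothing in the labels ties the replicates to separate mice or dishes, and p-values therefore cover no more than library-to-library variation, possibly technical.

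Stromal cells of bone marrow are the fibroblast-like cells that attach to a culture dish beside macrophages. They secrete fibril-forming collagens, which are folded with the help of chaperones, assembled outside the cell and cross-linked by lysyl oxidases, together with glycoproteins that connect the fibrils to cells. In culture such cells often take on contractile genes of smooth muscle, such as those of alpha smooth muscle actin and transgelin. Macrophages make little fibrillar collagen, but they do express fibronectin, thrombospondin 1 and some tropomyosin.

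The libraries held 18489873 to 21667237 counts. Asxl2 itself lay between 89.8 and 95.6 CPM (counts relative to library size, scaled with edgeR's TMM factors) in the flox_BMM libraries and between 14.9 and 15.4 in KO_BMM, and between 71.1 and 75.6 in flox_OC and 12.7 and 15.1 in KO_OC. All 10 macrophage markers examined were expressed, with a summed level of 28889 to 33623 CPM in the BMM libraries and 15743 to 16931 in the OC libraries. Lyz2, the gene whose control drives Cre in the KO genotype, supplied 67.0% of that sum over all libraries. The common biological spread between replicates was 4.03% (coefficient of variation) in flox_BMM and between 1.85% and 1.97% in each of the other groups.

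Of the 48 genes, 45 had enough counts for the test. Lum, the gene of the proteoglycan lumican, had 0 counts in both BMM groups and 1 count in each OC group. The other two left out were Twist1, a transcription factor gene of mesenchymal cells, and Pdgfra, the gene of platelet-derived growth factor receptor alpha. Twist1 summed to 15, 5, 19 and 2 counts and Pdgfra to 12, 4, 16 and 2 counts in flox_BMM, KO_BMM, flox_OC and KO_OC. For both genes the point ratio of KO to flox was under 1 in both cultures. With exact 95% intervals that cover counting error only, that ratio was 0.306 (0.0869 to 0.885) in BMM and 0.111 (0.0125 to 0.460) in OC for Twist1. For Pdgfra it was 0.306 (0.0719 to 1.01) in BMM and 0.132 (0.0147 to 0.561) in OC.

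The 48 genes together were a small part of each library. Their share of all counts was 0.0832% to 0.0865% in flox_BMM, 0.0351% to 0.0366% in KO_BMM, 0.132% to 0.134% in flox_OC and 0.0820% to 0.0847% in KO_OC. A single gene, Cav1, supplied 28.99% of the members' summed level over the 12 libraries. Without Fn1, Thbs1, Cav1 and Tpm1, which were set aside after their values were seen, the other 44 genes summed to 547 CPM in flox_BMM, 185 in KO_BMM, 429 in flox_OC and 153 in KO_OC. On that sum the libraries of flox_BMM (519 to 565 CPM) and flox_OC (426 to 431) lay above every library of KO_BMM (181 to 193) and KO_OC (143 to 160). In bulk RNA fewer cells of a type and less RNA per cell cannot be told apart, which holds for every level given here.

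Per kilobase of exon, the most abundant of the genes in flox_BMM was Acta2 (alpha smooth muscle actin) at 37.4 ± 1.20 RPKM (SD, n = 3), followed by Thbs1 (thrombospondin 1) at 19.0 ± 0.352. Cav1 (caveolin 1, 15.0 ± 2.55 RPKM), Tpm1 (tropomyosin 1, 15.0 ± 0.440), Tagln (transgelin, 14.8 ± 0.900) and Col1a1 (the alpha 1 chain of type I collagen, 13.9 ± 0.792) came next, and these 4 do not differ in rank beyond their spread. Acta2 stood clear of Thbs1, and Thbs1 of the 4 behind it. In both OC groups the order was led by Cav1 (144 RPKM in flox_OC, 118 in KO_OC) and Tpm1 (29.4 and 25.9), with Acta2 at 27.3 and 10.8. Reads of Acta2 may be shared with the near-identical coding sequences of other actin genes, so its level is uncertain. At least 1 CPM was reached by 43 of the 48 genes in flox_BMM, 36 in KO_BMM, 43 in flox_OC and 35 in KO_OC.

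**Figure D1:**
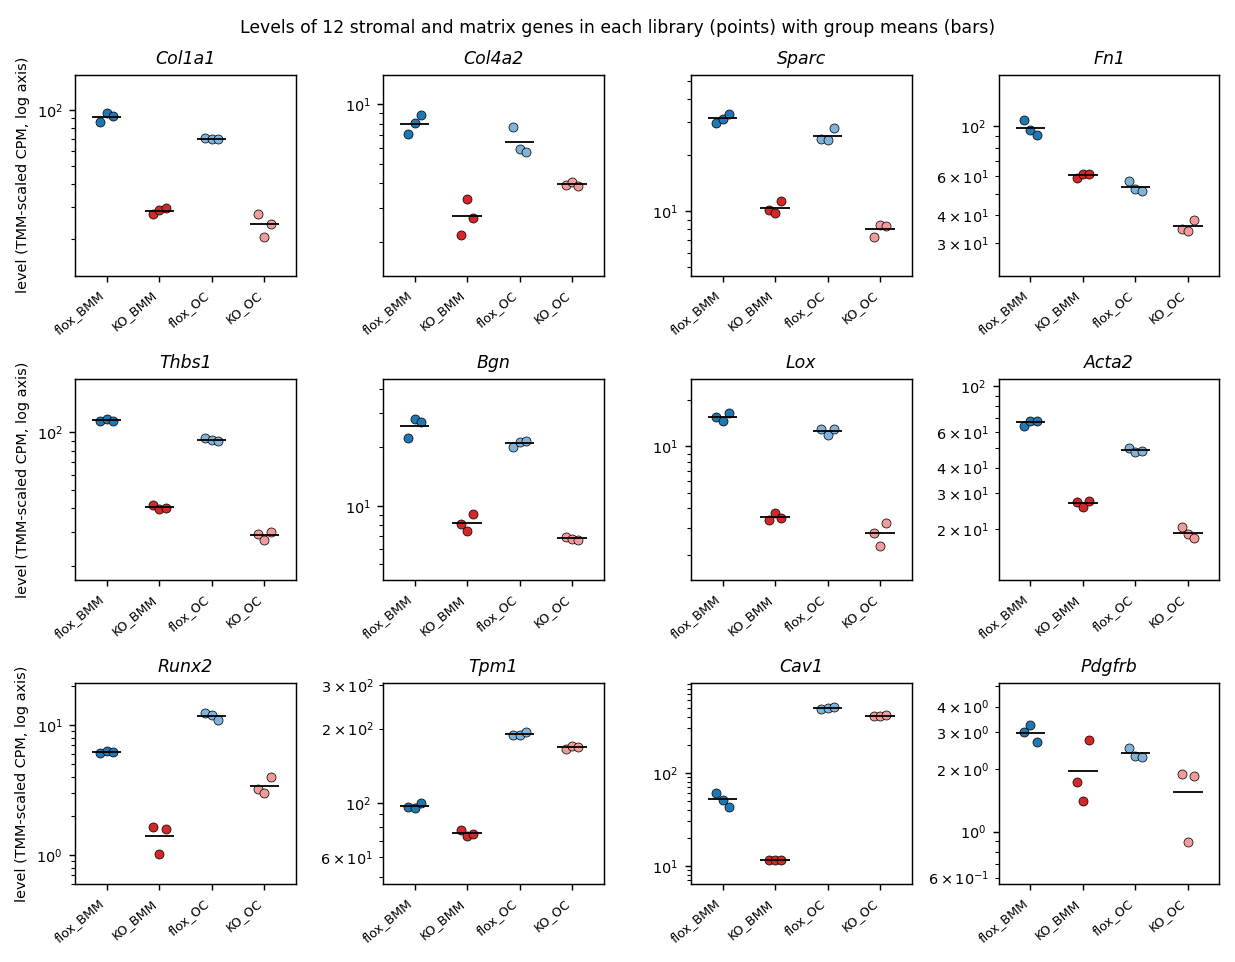
Levels of 12 of the genes in each of the 12 libraries, as TMM-scaled CPM on a log axis, with points for libraries and bars for the mean of each group of 3. Col1a1 sits between 85.6 and 95.7 CPM in flox_BMM and between 27.5 and 29.6 in KO_BMM, while Cav1 lies above 400 CPM in all 6 OC libraries.

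KO against flox in the M-CSF cultures asks what the Cre-positive genotype does to these genes in macrophage cultures. All 45 tested genes were lower in KO_BMM (edgeR quasi-likelihood test, adjusted p under 0.05), and none was higher. Of all 13030 genes tested, 20.6% were called lower, 19.3% higher and 39.9% in either direction. A log2 change is the log2 fold change of that fit, with its standard error (SE). For 44 of the 45 all 3 KO libraries lay below all 3 flox libraries, against 23.3% of all genes in that direction. The exception was Pdgfrb. The median log2 fold change of the 45 was -1.54, a 2.92-fold fall, where the median over all genes was 0.00.

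The fibril-forming collagens, which make up the bulk of fibrous tissue, were lower in all 6 cases, with a median of -1.69. Col1a1 stood at 85.6, 95.7 and 93.0 CPM in the flox_BMM libraries and at 27.5, 28.7 and 29.6 in KO_BMM, so that the groups did not overlap (log2 change -1.68, SE 0.06, edgeR adjusted p = 3.74e-19). Its partner chain gene Col1a2 stood at 63.7, 71.9 and 71.3 CPM against 21.1, 19.8 and 22.9, again without overlap (log2 change -1.70, SE 0.06, edgeR adjusted p = 7.11e-28). Both chains of type I collagen, the main protein of bone and tendon, thus fell by the same factor within their errors. Col3a1, whose product forms fibrils of soft tissue, lay at 7.15, 6.24 and 8.08 CPM in flox_BMM and at 1.63, 1.78 and 2.42 in KO_BMM (log2 change -1.86, SE 0.15, edgeR adjusted p = 5.15e-15). The type V genes Col5a1 and Col5a2, whose chains start new fibrils, changed by -1.51 and -1.52. Col11a1, a cartilage collagen gene, had only 39 counts over the 3 flox_BMM libraries and 3 over KO_BMM, a ratio of 0.0706 (exact 95% interval of the counts 0.0139 to 0.222).

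The 7 other collagens were also all lower, with a median of -1.49 and a range from -1.76 (Col6a1) to -1.18 (Col6a3). Col4a1 and Col4a2 encode the 2 chains of the common basement membrane collagen and lie head to head on chromosome 8. Col4a2 stood at 7.09, 8.09 and 8.81 CPM in flox_BMM and at 2.17, 3.32 and 2.67 in KO_BMM (log2 change -1.54, SE 0.14, edgeR adjusted p = 3.41e-13), and Col4a1 changed by -1.45. Col8a1, a short-chain collagen of vessel walls, stood at 6.07, 5.98 and 6.17 CPM against 1.47, 1.78 and 2.62 (log2 change -1.62, SE 0.15, edgeR adjusted p = 1.48e-12). Col12a1, whose product binds along collagen fibrils, went from 10.9, 13.4 and 11.8 CPM to 3.48, 4.62 and 4.65 (log2 change -1.49, SE 0.12, edgeR adjusted p = 1.23e-14). In none of these 3 genes did the flox and KO libraries overlap.

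Among the 11 glycoproteins and secreted binding proteins, again all lower, the median was -1.51. Thbs1, an adhesive glycoprotein that activates latent TGF-beta, had 114, 118 and 114 CPM in flox_BMM and 41.8, 39.6 and 40.3 in KO_BMM (log2 change -1.51, SE 0.04, edgeR adjusted p = 4.41e-33). Sparc (osteonectin, a collagen-binding protein) had 29.6, 31.4 and 33.4 CPM against 10.1, 9.83 and 11.4 (log2 change -1.59, SE 0.07, edgeR adjusted p = 1.41e-23). Postn (periostin) had 11.3, 11.2 and 10.6 CPM against 3.64, 3.47 and 3.73 (log2 change -1.61, SE 0.11, edgeR adjusted p = 4.02e-17). For these 3 genes the KO libraries lay close together and well below the flox libraries. Thbs2, the close relative of Thbs1, fell further, from a mean of 4.02 CPM to 0.799 (log2 change -2.32, SE 0.22, edgeR adjusted p = 9.73e-13). Fn1 (fibronectin), which macrophages also make, fell least of the 11: its libraries stood at 107, 95.9 and 90.8 CPM in flox_BMM and at 58.9, 61.0 and 61.1 in KO_BMM (log2 change -0.70, SE 0.05, edgeR adjusted p = 8.00e-13). The remaining Fbn1, Fbln2, Fstl1, Igfbp7, Aebp1 and Ccdc80 lay between -1.67 (Ccdc80) and -1.27 (Fstl1). Fbn1 (fibrillin 1) shares 20.1% of its exonic bases with another gene model, and the counting ignored strand, so its reads are not assigned with certainty.

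Genes that handle collagen after its synthesis moved the same way. Lox, the gene of the lysyl oxidase that cross-links collagen and elastin, stood at 15.4, 14.7 and 16.5 CPM in flox_BMM and at 3.37, 3.71 and 3.44 in KO_BMM (log2 change -2.14, SE 0.10, edgeR adjusted p = 8.19e-23). Serpinh1, which encodes the collagen chaperone HSP47, stood at 15.0, 14.8 and 13.9 CPM against 4.73, 4.24 and 5.67 (log2 change -1.58, SE 0.10, edgeR adjusted p = 1.06e-18). Neither gene's groups overlapped, and Loxl1, a relative of Lox, changed by -1.62. The gelatinase gene Mmp2, which degrades matrix, fell by 0.95 from 3.10 ± 0.590 to 1.58 ± 0.110 CPM (SD, n = 3). Timp3, the gene of a matrix-bound inhibitor of such enzymes, changed by -1.74, with 21.3% of its exonic bases shared with another gene.

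Of the small proteoglycans, Bgn (biglycan) stood at 22.2, 27.9 and 26.8 CPM in flox_BMM and at 8.10, 7.37 and 9.11 in KO_BMM without overlap (log2 change -1.65, SE 0.08, edgeR adjusted p = 7.84e-22). Dcn (decorin), abundant in connective tissue, was rare here, with 38 counts over flox_BMM and 16 over KO_BMM (ratio 0.386, exact 95% interval of the counts 0.201 to 0.709). Decorin and lumican mark many fibroblasts of tissues, and both were rare in all 4 groups.

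The chemokine and transcription factor genes had a median log2 change of -2.14 over the 3 that were tested. Runx2, the transcription factor gene that directs osteoblast formation, stood at 6.13, 6.29 and 6.17 CPM in flox_BMM and at 1.63, 1.01 and 1.60 in KO_BMM (log2 change -2.14, SE 0.16, edgeR adjusted p = 9.08e-16). Cxcl12, the chemokine gene by which marrow stroma holds haematopoietic cells, went from 3.12, 3.61 and 3.70 CPM to 0.598, 0.578 and 0.776 (log2 change -2.41, SE 0.22, edgeR adjusted p = 5.02e-13). In both genes every KO library lay far below every flox library. Prrx1, a transcription factor gene of limb and skull mesenchyme, changed by -1.75 on 84 and 27 counts. The difference in size from the collagens was not tested.

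Receptors, cadherins and caveolin ranged from -2.16 to -0.60 on the log2 scale. Cav1 stood at 60.6, 51.4 and 43.0 CPM in flox_BMM and at 11.5, 11.6 and 11.6 in KO_BMM, a spread of its own among the flox libraries but no overlap (log2 change -2.16, SE 0.13, edgeR adjusted p = 2.84e-07). Cdh11 (osteoblast cadherin) changed by -1.91 and Cdh2 (N-cadherin) by -1.11 on 56 and 28 counts. Ddr2 (a receptor tyrosine kinase activated by fibrillar collagen) changed by -2.14 on 82 and 20 counts, a ratio of 0.224 (exact 95% interval of the counts 0.130 to 0.368). Pdgfrb, the receptor gene of pericytes and fibroblasts, changed least of them. Its flox_BMM libraries had 3.01, 3.25 and 2.69 CPM and its KO_BMM libraries 1.74, 1.397 and 2.76, so 1 KO library lay above 1 flox library. Its log2 fold change was -0.60 (SE 0.21, edgeR adjusted p = 0.0191), and the call was lost without flox_BMM replicate 2, KO_BMM replicate 1 or KO_BMM replicate 2 and with DESeq2 (adjusted p up to 0.155).

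The contractile genes were lower in all 6 cases, with a median of -1.42. Acta2 stood at 64.2, 68.0 and 67.7 CPM in flox_BMM and at 27.3, 25.7 and 27.4 in KO_BMM (log2 change -1.32, SE 0.05, edgeR adjusted p = 1.63e-27). Tagln stood at 22.9, 25.05 and 22.3 CPM against 8.53, 8.91 and 7.999 (log2 change -1.47, SE 0.08, edgeR adjusted p = 1.12e-21). Each gene's KO libraries were close together and far below the flox libraries. Myl9 (myosin light chain 9), Tpm2 (tropomyosin 2) and Cald1 (caldesmon) changed by -1.41, -1.73 and -1.44. Tpm1, which many cell types express, had 95.7, 95 and 100.2 CPM against 77.4, 73.5 and 74.95, a small but separate step (log2 change -0.37, SE 0.04, edgeR adjusted p = 4.53e-12).

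**Figure D2:**
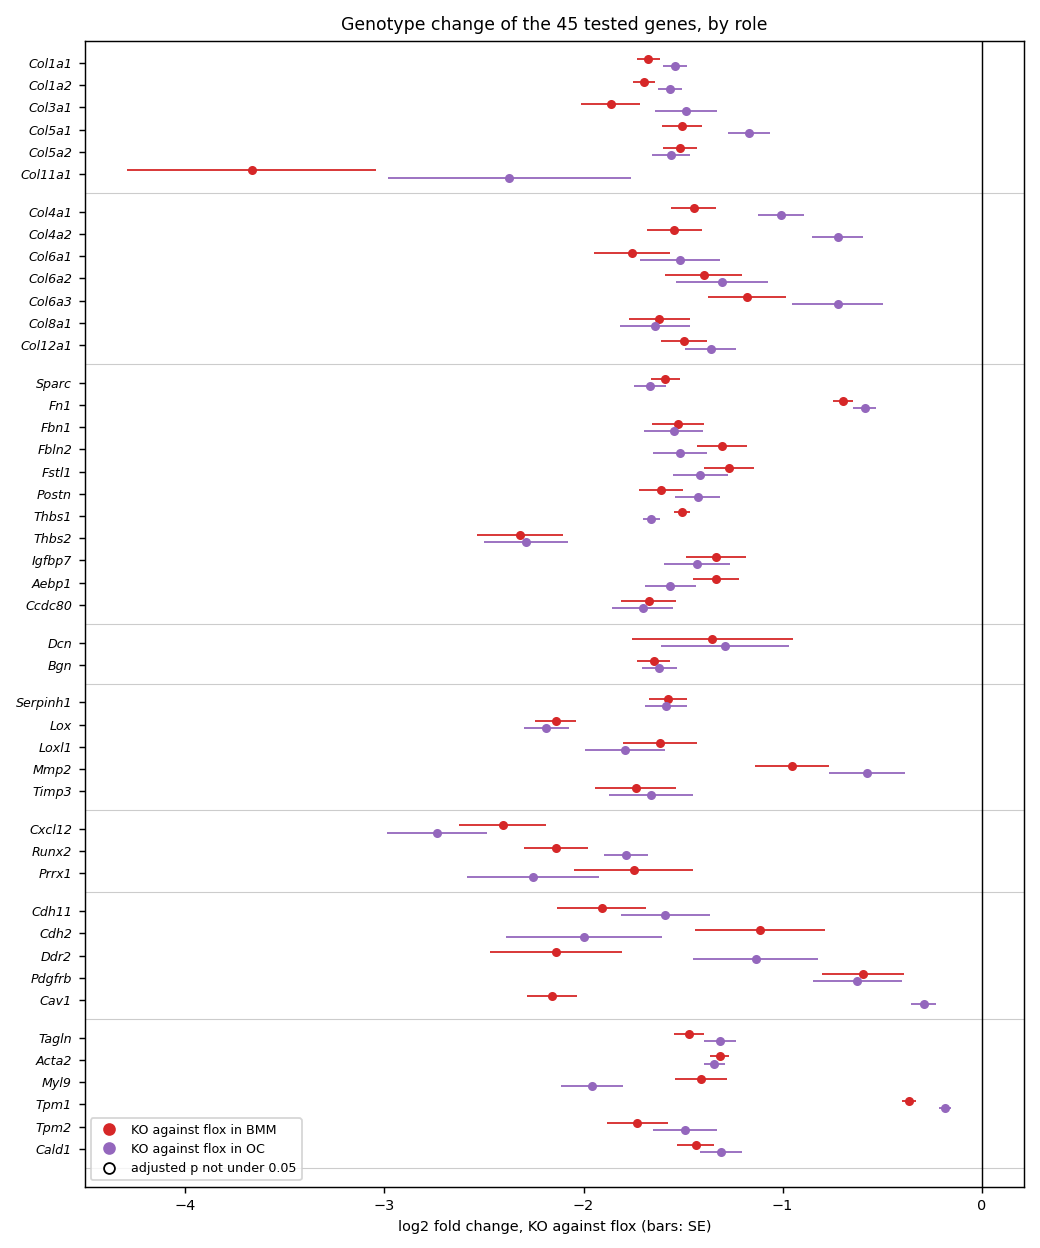
Log2 fold change of KO against flox for the 45 tested genes, ordered by role, in BMM (red) and OC (purple), with bars for the standard error. Every point lies left of 0, most of them between -1 and -2, with Tpm1, Fn1, Mmp2 and Pdgfrb nearest to 0 in BMM, and Cav1 moves from -2.16 in BMM to -0.29 in OC.

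The same comparison in the RANKL cultures uses 6 other libraries. There too all 45 tested genes were lower in KO_OC and none higher, beside 19.9% of all genes called lower, 21.4% higher and 41.3% either way. In all 45 every KO library was below every flox library, against 24.7% of all genes in that direction. The median log2 fold change was -1.52 (all genes 0.01). Genes called lower in KO in both cultures made up 10.8% of all genes tested.

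Both type I collagen genes were again lower in KO. Col1a1 had 70.4, 69.8 and 69.6 CPM in flox_OC and 27.5, 20.6 and 24.2 in KO_OC (log2 change -1.54, SE 0.06, edgeR adjusted p = 8.51e-18). Col1a2 had 50.2, 53.5 and 52.5 CPM against 17.9, 16.1 and 18.8 (log2 change -1.56, SE 0.06, edgeR adjusted p = 1.17e-25). In both the flox libraries lay within a few CPM of each other and well above the KO libraries. Col5a2, at 16.6, 16.5 and 17.4 CPM against 6.66, 4.90 and 5.57, changed by -1.56 (SE 0.09, edgeR adjusted p = 6.03e-19), and Col3a1 by -1.49. Col11a1 had 29 counts over flox_OC and 5 over KO_OC (ratio 0.182, exact 95% interval of the counts 0.0550 to 0.475).

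Thbs1 stood at 92.9, 90.8 and 90.05 CPM in flox_OC and at 29.3, 27.2 and 30.2 in KO_OC (log2 change -1.66, SE 0.04, edgeR adjusted p = 1.56e-33). Sparc stood at 24.5, 24.0 and 27.8 CPM against 7.28, 8.42 and 8.28 (log2 change -1.67, SE 0.08, edgeR adjusted p = 3.70e-23). Ccdc80, the gene of a matrix protein of fat and stroma, stood at 5.01, 5.44 and 4.68 CPM against 1.38, 1.63 and 1.61 (log2 change -1.70, SE 0.15, edgeR adjusted p = 2.51e-13). All 3 were separate between genotypes, as they had been in the M-CSF cultures. Bgn had 20.1, 21.2 and 21.4 CPM against 6.92, 6.78 and 6.68 (log2 change -1.62, SE 0.09, edgeR adjusted p = 1.23e-20). Lox had 12.9, 11.8 and 12.9 CPM against 2.77, 2.28 and 3.21 (log2 change -2.19, SE 0.11, edgeR adjusted p = 6.12e-22). Serpinh1 had 11.5, 11.1 and 12.4 CPM against 3.69, 3.76 and 4.17 (log2 change -1.59, SE 0.11, edgeR adjusted p = 1.14e-17). None of the 3 overlapped between genotypes, and Lox fell furthest among them.

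Cxcl12 had 178 counts over flox_OC and 25 over KO_OC, a ratio of 0.148 (exact 95% interval of the counts 0.0934 to 0.226). Runx2 stood at 12.4, 12.01 and 10.9 CPM in flox_OC and at 3.23, 3.02 and 3.97 in KO_OC (log2 change -1.79, SE 0.11, edgeR adjusted p = 1.01e-18). Acta2 stood at 49.8, 47.7 and 48.3 CPM against 20.5, 19.0 and 18.022 (log2 change -1.34, SE 0.05, edgeR adjusted p = 2.44e-26). Myl9, which carries the regulatory light chain of smooth muscle myosin, stood at 5.15, 5.14 and 5.02 CPM against 1.44, 1.24 and 1.25 (log2 change -1.96, SE 0.16, edgeR adjusted p = 6.43e-15). Each of these genes was apart in all 6 libraries. Among the smallest changes were Tpm1 (-0.18), Cav1 (-0.29), Mmp2 (-0.58), Fn1 (-0.59), Pdgfrb (-0.63), Col6a3 (-0.72) and Col4a2 (-0.72). The calls of Col6a3, Mmp2 and Pdgfrb in OC were each lost when single libraries were left out: Col6a3 without flox_OC replicate 3 or KO_OC replicate 1 (adjusted p up to 0.0767), Mmp2 without flox_OC replicate 2 or KO_OC replicate 3 and with DESeq2 (up to 0.110), and Pdgfrb without flox_OC replicate 1 or KO_OC replicate 2 and with DESeq2 (up to 0.230).

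Most members fell by between 2-fold and 4-fold in either culture. In BMM 34 of the 45 fell between 2-fold and 4-fold, a band that held 3.01% of all genes as a fall, and the distance between the quartiles of their log2 changes was 0.39 (0.28 over all genes, whose median was 0.00). In OC 33 of the 45 fell within that band (2.36% of all genes), with a distance of 0.36 between the quartiles (0.28 over all genes). Above 4-fold in both cultures were Col11a1, Thbs2, Lox and Cxcl12, joined by Runx2, Ddr2 and Cav1 in BMM and by Prrx1 in OC. Below 2-fold in both were Fn1, Mmp2, Pdgfrb and Tpm1, joined by Col4a2, Col6a3 and Cav1 in OC. For 38 of the 45 the genotype changes in BMM and OC, which share no library, lay within 0.5 of each other on the log2 scale, beside 88.7% of all genes tested.

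RANKL against M-CSF alone asks how the genes move when macrophage cultures are turned towards osteoclasts. In flox cells 30 of the 45 fell, 3 rose and 12 did not pass (all genes: 37.8% lower, 37.0% higher, 74.8% called). The median was -0.34 and the falls were small. In KO cells 21 fell, 4 rose and 20 did not pass (all genes: 35.0% lower, 35.5% higher, 70.5% called), with a median of -0.33. The share of genes lower in flox, 30 of 45, is above the background, and the share in KO, 21 of 45, is closer to it. These small falls depend on the scaling: with library size alone in place of TMM factors the median of all genes moves by 0.168 in flox and 0.135 in KO, and the members called lower become 17 and 7. With DESeq2 they were 20 and 12.

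The fibril-forming collagens fell in 5 of 6 cases in flox and in 3 of 6 in KO. Col1a1 went from 85.6, 95.7 and 93.0 CPM in flox_BMM to 70.4, 69.8 and 69.6 in flox_OC (log2 change -0.39, SE 0.05, edgeR adjusted p = 7.99e-08). In KO it went from 27.5, 28.7 and 29.6 to 27.5, 20.6 and 24.2 CPM (log2 change -0.25, SE 0.07, edgeR adjusted p = 0.00298). The flox groups did not overlap, whereas in KO 1 OC library was level with the lowest BMM library. Col1a2 moved alike, by -0.41 in flox and -0.28 in KO. Col3a1 and Col5a1 fell in flox (-0.45 and -0.39) and stood at -0.07 and -0.06 in KO, which did not pass (adjusted p = 0.759 and 0.693 with edgeR), and neither difference between genotypes passed (adjusted p = 0.268 and 0.107 with edgeR).

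Fibronectin fell in both genotypes. Fn1 went from 107, 95.9 and 90.8 CPM in flox_BMM to 57.0, 52.6 and 51.1 in flox_OC (log2 change -0.87, SE 0.05, edgeR adjusted p = 7.71e-16). In KO cells its libraries went from 58.9, 61.0 and 61.1 CPM to 34.9, 34.1 and 38.1 (log2 change -0.76, SE 0.06, edgeR adjusted p = 5.44e-13). The OC libraries were below the BMM libraries in both genotypes. Thbs1 fell by 0.34 in flox and by 0.49 in KO, and Acta2 by 0.45 and 0.48. Myl9 fell by 0.34 in flox and by 0.89 in KO, where it went from 2.45, 2.65 and 2.18 CPM to 1.44, 1.24 and 1.25. The difference between genotypes for Myl9 did not pass (edgeR adjusted p = 0.0666). Its call in flox was lost with library size alone and with DESeq2. Cdh2 had the largest fitted fall in KO, 1.08, but on 28 and 13 counts, and its call was lost under 6 of the alternatives (adjusted p up to 0.230).

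Against this background 3 members rose with RANKL in both genotypes, Cav1, Tpm1 and Runx2. Cav1 codes for the coat protein of caveolae, small pits of the plasma membrane. It went from 60.6, 51.4 and 43.0 CPM in flox_BMM to 487, 496 and 509 in flox_OC, a 9.63-fold rise (log2 change 3.27, SE 0.08, edgeR adjusted p = 3.41e-11). In KO cells it went from 11.5, 11.6 and 11.6 CPM to 402, 403 and 414, a 35.1-fold rise (log2 change 5.13, SE 0.10, edgeR adjusted p = 6.00e-12). All OC libraries lay far above all BMM libraries, and the gap between the genotypes was narrower in OC than in BMM.

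Tpm1 went from 95.7, 95 and 100.2 CPM to 189, 189 and 194 in flox cells (log2 change 0.98, SE 0.03, edgeR adjusted p = 1.15e-30). In KO cells it went from 77.4, 73.5 and 74.95 CPM to 166, 169 and 169 (log2 change 1.16, SE 0.03, edgeR adjusted p = 6.05e-33). Runx2 went from 6.13, 6.29 and 6.17 CPM to 12.4, 12.01 and 10.9 in flox cells (log2 change 0.93, SE 0.10, edgeR adjusted p = 1.08e-11). In KO cells Runx2 went from 1.63, 1.01 and 1.60 CPM to 3.23, 3.02 and 3.97 (log2 change 1.27, SE 0.18, edgeR adjusted p = 2.60e-08). Neither gene's BMM and OC libraries overlapped in either genotype. For Runx2 5.87% of exonic bases are shared with an antisense gene, whose reads cannot be told apart here. Among all genes 31.0% rose with RANKL in both genotypes, and 4.45% did so and were also lower in KO in both cultures, as these 3 were.

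**Figure D3:**
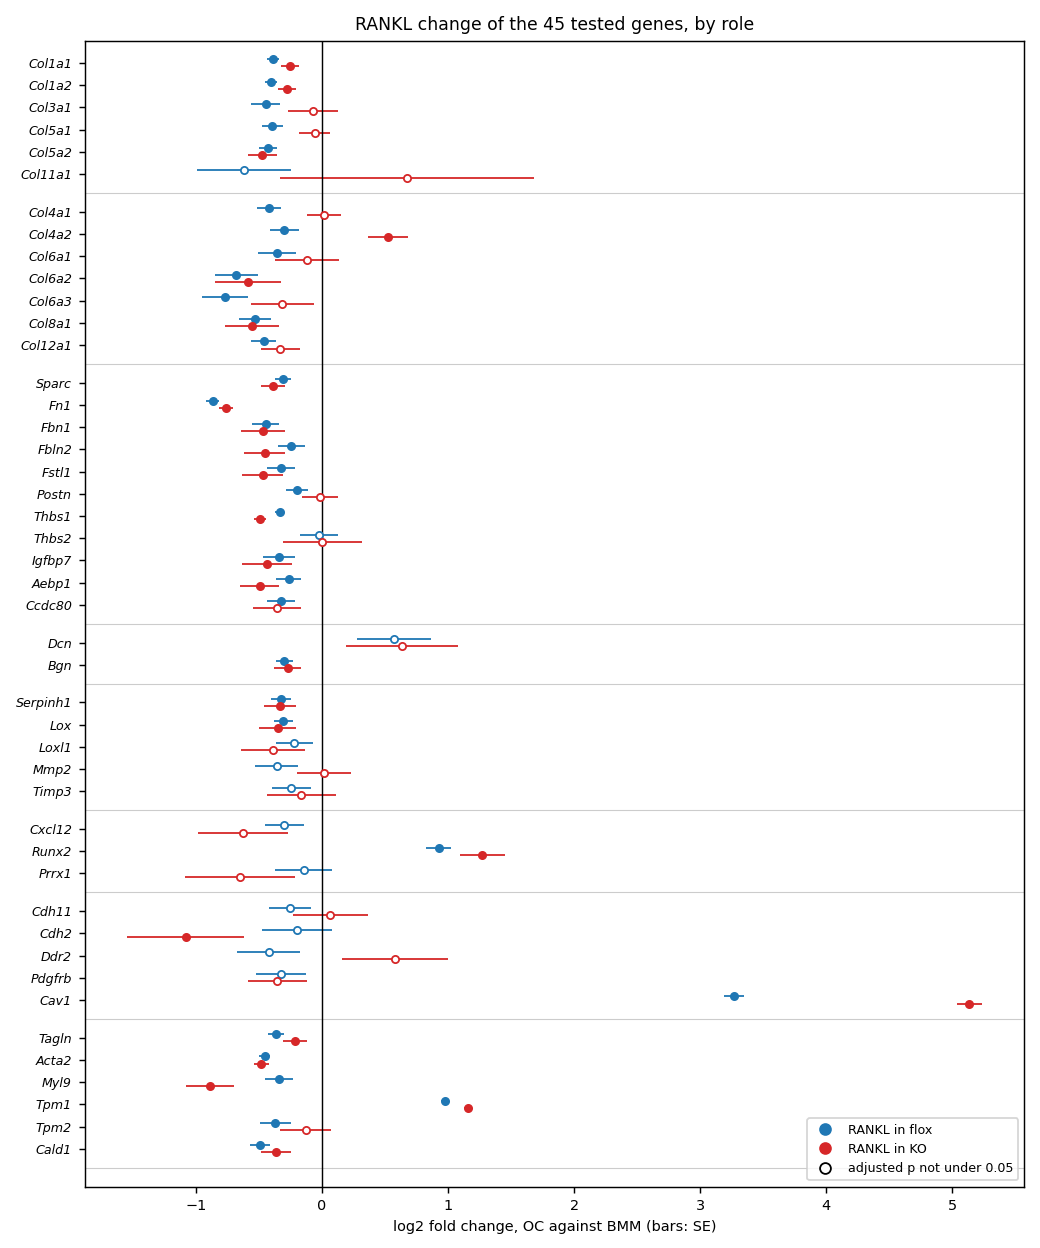
Log2 fold change of OC (M-CSF and RANKL) against BMM (M-CSF alone) for the 45 tested genes, ordered by role, in flox (blue) and KO (red), with bars for the standard error and open points where the edgeR adjusted p was not under 0.05. Most points lie a little left of 0, and Cav1 (3.27 and 5.13), Tpm1 (0.98 and 1.16) and Runx2 (0.93 and 1.27) stand to the right.

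The sequence before the start of Cav1 is set beside those of Col3a1 and Thbs2, members that did not rise with RANKL. Each of these windows holds TATAAA, so they are examples and do not compare genes that rose with genes that did not. Of the other members that rose in both genotypes, Tpm1 holds CCAAT and Runx2 none of the motifs searched. The RefSeq promoter table (GRCm38.p6) held an entry for 33 of the 48 genes. Each line gives the 250 bases before the annotated start, 5′ to 3′ on the gene's strand, and Cav1 is shown for the start at the 5′ end of its gene model (the table lists another start further downstream). Capitals mark TATAAA and CCAAT, searched on both strands, so that a match on the other strand reads TTTATA or ATTGG.
Cav1, chr6:17306085-17306334, plus strand: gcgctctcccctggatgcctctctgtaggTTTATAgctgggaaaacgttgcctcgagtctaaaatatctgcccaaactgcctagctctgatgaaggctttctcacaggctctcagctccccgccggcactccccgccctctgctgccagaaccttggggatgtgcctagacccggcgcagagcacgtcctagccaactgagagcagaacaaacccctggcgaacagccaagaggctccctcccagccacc
Col3a1, chr1:45311288-45311537, plus strand: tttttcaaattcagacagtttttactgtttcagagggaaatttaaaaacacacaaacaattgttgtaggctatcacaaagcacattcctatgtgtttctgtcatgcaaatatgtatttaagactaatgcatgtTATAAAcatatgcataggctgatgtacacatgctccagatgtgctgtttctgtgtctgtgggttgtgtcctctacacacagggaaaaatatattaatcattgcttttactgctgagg
Thbs2, chr17:14694263-14694512, minus strand: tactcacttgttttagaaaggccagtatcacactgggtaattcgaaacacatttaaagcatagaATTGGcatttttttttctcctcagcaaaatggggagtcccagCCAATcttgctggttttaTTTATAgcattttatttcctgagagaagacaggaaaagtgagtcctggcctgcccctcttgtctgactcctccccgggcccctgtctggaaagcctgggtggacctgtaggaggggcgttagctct

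TATAAA lies 221 bases before the start in Cav1 on the other strand, 117 bases before it in Col3a1, and 126 bases before it in Thbs2 on the other strand. Of the 33 members with an entry 7 hold TATAAA in at least 1 of their windows, beside 14.3% of the 27025 genes in the table, and 8 hold CCAAT, beside 37.5% of genes. TGANTCA, the letters that AP-1 proteins bind, occurs in Cald1 and Col6a1, beside 7.82% of genes. The CArG box, bound by serum response factor, was searched only in its strict form CCWWWWWWGG, where W is A or T. That form occurs in Myl9, beside 1.62% of genes. Boxes with another base in the core were not counted, such as ccctatatgg and ccttgtttgg in the Acta2 window. A gene without a strict match may therefore still hold a CArG box. Neither motif occurs in the Cav1 window, which says only that those letters are not in these 250 bases. None of the matches shows that a factor binds there.

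Whether RANKL acted differently in the 2 genotypes was tested as an interaction. It passed for 3 of the 45, all with a higher RANKL effect in KO, and for none with a lower one (all genes: 12.3% higher, 9.54% lower, 21.9% called). Cav1 had a difference of RANKL effects of 1.86 (SE 0.14, edgeR adjusted p = 7.68e-06), so that the 4.46-fold gap between genotypes in BMM became 1.22-fold in OC. Col4a2 had a difference of 0.82 (SE 0.19, edgeR adjusted p = 0.00132). It fell in flox cells from 7.09, 8.09 and 8.81 CPM to 7.72, 5.98 and 5.75 (log2 change -0.30, SE 0.11, edgeR adjusted p = 0.0164) and rose in KO cells from 2.17, 3.32 and 2.67 CPM to 3.90, 4.06 and 3.87 (log2 change 0.52, SE 0.16, edgeR adjusted p = 0.00343). The flox groups of Col4a2 overlapped, while its KO groups did not, and the fall in flox was lost under 5 of the alternatives. Tpm1 had a difference of 0.18 (SE 0.05, edgeR adjusted p = 0.00311), with no overlap between groups at either step. Col4a1, the partner gene of Col4a2, had a difference of 0.44 that missed the threshold (SE 0.17, edgeR adjusted p = 0.0521).

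**Figure D4:**
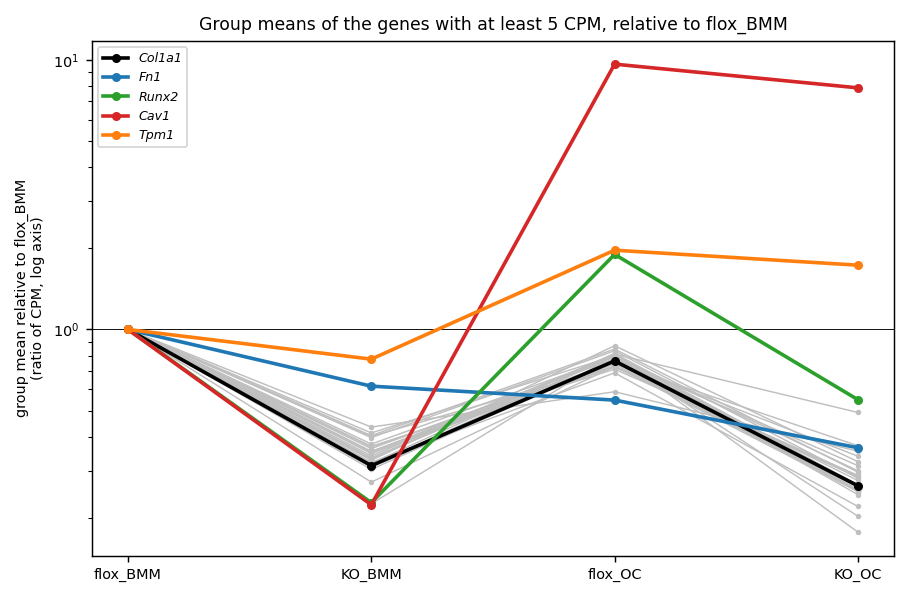
Group means of the members with at least 5 CPM in some group, each divided by its mean in flox_BMM, on a log axis, with 5 genes in colour and the rest in grey. Col1a1 (91.4, 28.6, 69.9 and 24.1 CPM in flox_BMM, KO_BMM, flox_OC and KO_OC) is lower in KO and a little lower with RANKL, Col4a2 among the grey lines is higher in KO_OC (3.94 CPM) than in KO_BMM (2.72), and Cav1, Tpm1 and Runx2 rise in the OC groups and Fn1 is lower both in KO and with RANKL.

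Ratios were taken for 7 pairs of genes whose products are chains of one collagen or belong to one family. The ratio of Col1a1 to Col1a2, per kilobase, was 2.45 ± 0.0367, 2.49 ± 0.164, 2.49 ± 0.0943 and 2.53 ± 0.264 (SD, n = 3) in flox_BMM, KO_BMM, flox_OC and KO_OC. All 4 means lay within the spread of KO_OC, the widest, although the genes themselves differed over 3-fold between groups. The SD of flox_BMM was narrower and did not reach the means of KO_BMM and KO_OC. The ratio of Col5a1 to Col5a2 was 0.677, 0.683 and 0.691 in the first 3 of these groups and 0.905 ± 0.0504 in KO_OC, where all 3 libraries (0.856 to 0.957) lay above every other library. Col4a1 to Col4a2 was 1.30, 1.44 and 1.23 in the same 3 groups and 0.982 ± 0.0363 in KO_OC, with 1 flox_OC library at 1.01 inside the KO_OC range. For Tpm1 to Tpm2 the proportion was 7.01 ± 1.22, 17.8 ± 1.90, 17.6 ± 2.35 and 43.4 ± 4.57, so that it was higher in KO than in flox and higher with RANKL than without, and KO_BMM and flox_OC were level with each other. The ratio of Thbs1 to Thbs2 was 29.5 ± 8.81, 50.6 ± 9.26, 22.6 ± 2.37 and 35.3 ± 3.85 in the 4 groups, with no overlap between flox and KO in either culture. For Col6a1 to Col6a2 it was 2.57, 2.12, 3.27 and 2.87 and for Col6a1 to Col6a3 2.19, 1.55, 2.92 and 1.92, with SDs of up to 1.17 and 1.27 in KO_OC. These ratios were not tested.

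**Figure D5:**
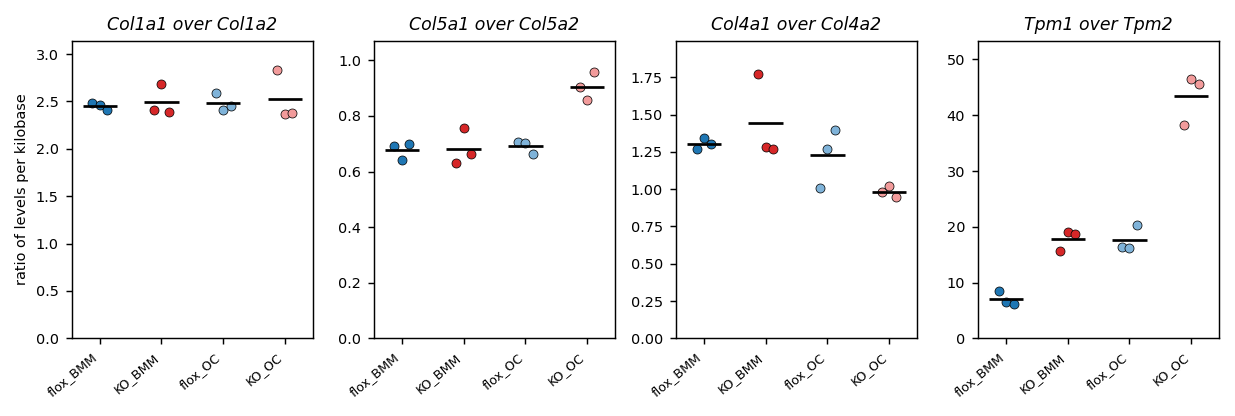
Ratio of levels per kilobase for 4 pairs of genes in each library, with bars for the mean of each group. Col1a1 over Col1a2 stays between 2.37 and 2.83 in all 12 libraries, and Tpm1 over Tpm2 climbs from 6.16 to 8.40 in flox_BMM to 38.2 to 46.5 in KO_OC.

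A wider set of 49 collagen and matrix genes outside the members was read from the same fit, and 36 of them were tested. In KO_BMM 26 were lower, 3 higher and 7 did not pass (all genes: 20.6% lower, 19.3% higher), with a median of -0.79. In KO_OC 21 were lower, 6 higher and 9 did not pass (all genes: 19.9% lower, 21.4% higher), with a median of -0.80. These genes therefore fell less often and by less than the members on counts and medians alone, a difference that was not tested. Among those with at least 1 CPM in the higher group, the largest changes in BMM were those of Ltbp1 (a latent TGF-beta binding protein, -1.92), Ccn1 (a secreted matrix protein, -1.83) and Tnc (tenascin C, -1.80). By the same limit they were those of Col5a3 (-2.03), Ccn1 (-1.85) and P4ha3 (a collagen prolyl hydroxylase, -1.80) in OC. Plod1 (a collagen lysyl hydroxylase), Lamb2 (a laminin chain) and Emilin1 (an elastic fibre protein) were higher in KO_BMM by 0.15, 0.51 and 0.38 and in KO_OC by 0.16, 0.52 and 0.78. With RANKL 8 of the 36 rose and 20 fell in flox (all genes: 37.0% higher, 37.8% lower), and 8 rose and 17 fell in KO (all genes: 35.5% higher, 35.0% lower). Vcan (versican, 3.17 in flox and 4.38 in KO), Ltbp1 (2.81 and 3.15) and P4ha3 (2.65 and 2.76) rose most.

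Markers of other cell types were examined beside the members. Counts over their lists stand beside 20.6% of all genes lower and 19.3% higher in KO_BMM, and 19.9% lower and 21.4% higher in KO_OC. Of the osteoblast markers, Bglap, Bglap2 and Mepe were at 0 in all libraries and Sp7, Alpl, Dmp1 and Dlx5 were under 0.1 CPM and Ibsp and Phex under 0.2 CPM in each group mean, too few counts for the test. Of 6 adipocyte markers Plin1, Cidec, Lep and Cfd were at 0, and Pnpla2, a lipase gene of many cells, was the only one tested and did not pass in either genotype comparison.

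Among 10 markers of marrow stromal progenitors Lepr was under 0.2 CPM in every group mean and 4 were tested. Of these 3 were lower and 1 did not pass in KO_BMM, and all 4 were lower in KO_OC. Their list summed to 92.7 to 101 CPM in flox_BMM, 56.4 to 61.9 in KO_BMM, 51.8 to 52.9 in flox_OC and 38.9 to 39.1 in KO_OC, with Kitl (stem cell factor) the most abundant. Vcam1, an adhesion molecule gene, went from 3.68 to 1.08 CPM in BMM (-1.76) and from 3.08 to 0.755 in OC (-2.02), and Grem1, a BMP antagonist gene, changed by -1.52 and -1.04. The other tested genes changed less: Kitl by -0.92 in BMM, and Nes (nestin) by -0.35 in OC. The smallest change among the 4 was -0.07 in BMM and -0.33 in OC, and their medians were -1.22 and -0.70.

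Smooth muscle and pericyte markers split. Cnn1 (calponin 1) changed by -1.53 and Actg2 (an enteric smooth muscle actin) by -1.52 in BMM, close to Acta2 and Tagln, while Smtn (smoothelin) was higher by 1.05. Of 7 tested 5 were lower, 1 higher and 1 did not pass in BMM, and 3 were lower, 1 higher and 3 did not pass in OC, while Des and Rgs5 were under 0.2 CPM in each group mean. Their list summed to 88.6 to 121 CPM in flox_BMM, 83.8 to 94.7 in KO_BMM, 189 to 197 in flox_OC and 180 to 198 in KO_OC, and 86.3% of that came from Cspg4.

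Endothelial markers did not move together: of 7 tested 2 were higher, 3 lower and 2 did not pass in BMM, with Tie1 higher by 1.86 and Kdr at -0.75. Pecam1, Tek and Emcn were under 0.3 CPM in every group mean, and the list summed to 116 to 127, 99.8 to 106, 81.5 to 86.9 and 63.6 to 66.5 CPM in flox_BMM, KO_BMM, flox_OC and KO_OC. Eng (endoglin) supplied 66.0% of the endothelial sum. Of 8 megakaryocyte and platelet markers 3 were tested, and 2 of them fell in each genotype comparison. Pf4 (platelet factor 4, also made by macrophages) changed by -2.90 in BMM and -3.15 in OC, and Ppbp by -3.27 and -3.00, while Gp1bb, Gp9 and Gp5 were under 0.1 CPM in each group mean. The sum of that list was 348 to 413, 51.7 to 57.4, 138 to 143 and 18.4 to 19.5 CPM in the same order of groups, nearly all from Pf4.

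The macrophage markers moved in both directions with genotype. In BMM 8 of 10 were lower and 2 higher, from -0.47 to 0.22 with a median of -0.20. In OC 3 were lower, 5 higher and 2 did not pass, with a median of 0.10, from -0.65 (Mrc1, the mannose receptor gene) to 1.01 (Mertk, a receptor for the uptake of dying cells). Of 8 tested osteoclast markers 4 were lower, 2 higher and 2 did not pass in KO_BMM (median -0.81), and 7 were lower and 1 did not pass in KO_OC (median -0.98). With RANKL 7 of those 8 rose in each genotype, beside 37.0% of all genes in flox and 35.5% in KO. Cav1, Tpm1 and Runx2 also rose in both genotypes, as did 31.0% of all genes. The list of osteoclast markers summed to 234 to 243 CPM in flox_BMM, 206 to 210 in KO_BMM, 744 to 765 in flox_OC and 380 to 397 in KO_OC. Which cells the members' reads came from was not measured, and the part of each marker list in the members' changes was not tested.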

How the data were processed

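The 12 bulk RNA-seq libraries were grouped by their sample titles, 3 to a group. The authors deposited raw read counts per gene without normalization. Per the submitters' processing notes, STAR 2.0.4b served as the aligner and GRCm38 as the genome, and per the file headers reads were counted with featureCounts 1.4.5-p1 over Ensembl release 76 exons with strand setting 0, which ignores strand.

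Symbols came from GENCODE M21 (40254 of 41388 identifiers), and identifiers without a symbol held 0.136% of counts and stayed in the fit. Tests used quasi-likelihood F statistics from edgeR 4.0.16 under R 4.3.3, with TMM scaling, robust estimation and its default filter on low counts. A single model with 4 group means covered the 12 libraries, 13030 genes and 5 contrasts. A gene was called at a Benjamini-Hochberg adjusted p under 0.05 over all genes tested. Levels are TMM-scaled CPM or RPKM with the deposited exonic length. Groups did not overlap where all 3 libraries of one lay above all 3 of the other. In 1 library 3 counts, the limit that a count of 0 allows, are 0.138 to 0.162 CPM. Intervals cover counting error only.

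Replicates differed by more than sampling noise (chi-square over its degrees of freedom 1.23 to 5.05). The fit was tested on simulated data with known changes. The members and all gene lists were chosen with earlier results of these data known. Values are given in full for called members with at least 5 CPM and the largest changes of their role group, the most abundant of each group and those that moved against the rest, and other members are named freely. Genes outside the members were named for the largest called changes of their list at 1 CPM or more, and markers near 0. Alternatives were other scalings and filters, DESeq2 1.42.0, limma-voom (limma 3.58.1), a replicate block, fits of 2 groups alone and each library left out. Some values of the osteoblast and megakaryocyte marker lists are not reported here.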

Additional observations from a re-analysis of the deposited data

Results flagged for a closer look

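The effect of RANKL differed between the genotypes, by the interaction term of the edgeR fit, for 3 of the 45 tested members and 7 of the 36 tested matrix genes outside them (6 with a positive and 1 with a negative difference). Over all genes tested 21.9% were called in either direction, a share that neither set exceeded. The interaction is thus reported for single genes and not as a trait of these sets. The log2 difference of RANKL effects, KO minus flox, was 1.86 for Cav1 (edgeR adjusted p = 7.68e-06), 0.82 for Col4a2 (edgeR adjusted p = 0.00132) and 0.18 for Tpm1 (edgeR adjusted p = 0.00311). Vcan, the versican gene, had a difference of 1.21 (edgeR adjusted p = 1.06e-08): its group mean rose from 4.64 to 41.8 CPM in flox and from 2.61 to 54.9 in KO. For Ltbp2, a latent TGF-beta binding protein gene, the difference was 1.17 (edgeR adjusted p = 1.38e-08), with 15.4 to 27.1 CPM in flox and 10.2 to 40.4 in KO. Nid1, the basement membrane gene nidogen 1, had a difference of -0.78 (edgeR adjusted p = 0.0317), with 3.94 to 3.38 CPM in flox and 2.24 to 1.10 in KO, and that call was lost under 8 of the alternatives. Lamc1 (0.48), Nid2 (0.40), Emilin1 (0.40) and Col18a1 (0.33) had smaller differences.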

How the results depend on the processing

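The 45 members stayed lower in KO with the count at 44 to 45 in each culture when single libraries were left out. With DESeq2, 44 of 48 members were called lower in KO in BMM and 43 of 48 in OC. Library size alone, in place of TMM factors, gave 17 members lower with RANKL in flox (median -0.168) and 7 in KO, and 2 lower in the interaction. DESeq2 gave 20 lower with RANKL in flox and 12 in KO. Leaving out 1 library gave 25 to 31 lower with RANKL in flox, 15 to 22 in KO, and 3 to 5 higher (5 without KO_OC replicate 2) and 0 to 1 lower (1 without flox_BMM replicate 1, flox_BMM replicate 2 or KO_OC replicate 3) in the interaction. The cause was not tested. With library size alone the share of calls that were higher, over all genes, was 59.9% in place of 48.3% for KO against flox in BMM, 62.8% in place of 49.5% for RANKL in flox, 63.5% in place of 50.4% for RANKL in KO, and 43.3% in place of 56.4% for the interaction. Correlations of the deviations of same-numbered libraries were near 0. Over all genes, many with low counts, that does not settle whether a replicate number ties libraries together. With a replicate block 45, 45, 30, 20 and 0 members were lower in the 5 comparisons, where Tagln lost its call for RANKL in KO. Over all alternatives 9 of 495 summary values moved. Of 3144 checks of the called changes chosen by the naming rule, which favours large changes, none reversed and 31 lost the call. Over all called members none reversed either. Their calls were lost 57 times for RANKL in KO and 42 times for RANKL in flox. For KO against flox they were lost 8 times in OC and 4 times in BMM. Member changes that were not called were less steady in sign, which reversed 25 times for RANKL in KO, 7 times for RANKL in flox and 47 times for the interaction. Low counts limit Col11a1, Dcn, Cdh2, Ddr2, Prrx1, Twist1 and Pdgfra.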
